A study of Mus musculus with 12 samples.

Results

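The genes described here are 9 members of the YAP-TEAD pathway, chosen by name among the 56980 gene IDs of a count table from NIH/3T3 cells, an immortalised line of mouse embryonic fibroblasts. They were chosen with earlier results of these data known. They are the co-activator genes Yap1 and Wwtr1 (which encodes TAZ), the gene for their DNA-binding partner Tead1, and 6 target genes: Ccn1 (formerly Cyr61), Ccn2 (formerly Ctgf), Ankrd1, Amotl2, Lats2 and Axl. The cells were labelled wild type and were treated for 8 h with DMSO as the vehicle, with carfilzomib at 200 nM (CFZ), with doxorubicin at 5 µM (DOX) or with both drugs at these doses (CFZ-DOX). Each of the 4 groups held 3 libraries of polyadenylated RNA. Carfilzomib blocks the proteasome, the protease complex that degrades ubiquitin-tagged proteins. Doxorubicin, an anthracycline, inserts between DNA bases and traps topoisomerase II on DNA. The libraries are named by group and replicate number. The labels do not say whether replicates came from separate cultures. The p-values therefore reflect only the spread among these libraries, which may be technical.

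YAP and TAZ are transcriptional co-activators without a DNA-binding domain of their own. When the Hippo kinase cascade is active, LATS1 and LATS2 phosphorylate them, which holds them in the cytoplasm and marks them for destruction by the proteasome. Otherwise they enter the nucleus, bind TEAD factors and switch on genes for secreted matricellular proteins (CCN1 and CCN2), a nuclear ankyrin-repeat protein (ANKRD1), a receptor tyrosine kinase (AXL) and negative regulators of the pathway itself (AMOTL2 and LATS2). In fibroblasts the pathway is known to respond to matrix stiffness, cell spreading and serum. The data here are transcript levels and hold no measure of the YAP or TAZ proteins or of where they lie in the cell.

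In the table (build GRCm39) the secreted and nuclear targets were Ccn1 (ENSMUSG00000028195) at chr3:145352731-145355736 on the minus strand, Ccn2 (ENSMUSG00000019997) at chr10:24471340-24474581 on the plus strand and Ankrd1 (ENSMUSG00000024803) at chr19:36089361-36097499 on the minus strand. The other targets were Amotl2 (ENSMUSG00000032531) at chr9:102593871-102610617 on the plus strand, Lats2 (ENSMUSG00000021959) at chr14:57927119-57995845 on the minus strand and Axl (ENSMUSG00000002602) at chr7:25456698-25488130 on the minus strand. The regulators were Yap1 (ENSMUSG00000053110) at chr9:7932000-8004597 on the minus strand, Wwtr1 (ENSMUSG00000027803) at chr3:57363070-57483331 on the minus strand and Tead1 (ENSMUSG00000055320) at chr7:112278525-112506014 on the plus strand. All counts are of exons of the whole gene. In bulk RNA, fewer cells with a transcript and less of it per cell cannot be told apart.

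The promoter sequences show where the letters of a TEAD site stand in these genes. The windows are the 250 bases before the annotated start (RefSeq, build GRCm38.p6, which is not the build of the counts), printed 5′ to 3′ on the gene's own strand, with each match to GGAATG, the core of the TEAD site, or to its reverse complement CATTCC in capitals. Windows were found by symbol for 7 of the 9 genes, all but Ccn2 and Tead1. The target genes that are shown whole are those that fell most with doxorubicin and had a window, and Axl, which did not fall. For Yap1 and Wwtr1 the bases around the match are given.
Ccn1 (chr3:145649986-145650235, minus strand): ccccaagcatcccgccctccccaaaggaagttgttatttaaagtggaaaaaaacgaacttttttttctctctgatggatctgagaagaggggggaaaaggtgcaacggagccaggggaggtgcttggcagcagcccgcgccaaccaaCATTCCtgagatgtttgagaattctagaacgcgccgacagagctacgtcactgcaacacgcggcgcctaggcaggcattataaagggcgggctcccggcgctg
Ankrd1 (chr19:36119845-36120094, minus strand): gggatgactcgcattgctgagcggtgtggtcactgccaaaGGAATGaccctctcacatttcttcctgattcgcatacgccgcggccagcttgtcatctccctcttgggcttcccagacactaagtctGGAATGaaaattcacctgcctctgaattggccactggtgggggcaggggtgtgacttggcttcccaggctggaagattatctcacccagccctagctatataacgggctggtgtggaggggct
Amotl2 (chr9:102717554-102717803, plus strand): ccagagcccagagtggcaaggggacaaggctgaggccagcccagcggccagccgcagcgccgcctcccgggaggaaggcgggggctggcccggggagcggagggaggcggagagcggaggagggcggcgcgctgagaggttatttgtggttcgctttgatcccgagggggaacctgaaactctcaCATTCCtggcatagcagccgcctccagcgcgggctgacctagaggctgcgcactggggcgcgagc
Axl (chr7:25788734-25788983, minus strand): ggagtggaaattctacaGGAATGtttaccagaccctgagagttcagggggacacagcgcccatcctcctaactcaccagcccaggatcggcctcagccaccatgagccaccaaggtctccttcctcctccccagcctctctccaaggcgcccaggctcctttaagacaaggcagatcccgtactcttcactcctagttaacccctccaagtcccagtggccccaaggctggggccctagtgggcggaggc
Yap1 (match at chr9:8004732-8004737, minus strand): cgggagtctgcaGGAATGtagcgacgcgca
Wwtr1 (match at chr3:57576041-57576046, minus strand): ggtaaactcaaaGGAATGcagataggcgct
A match stood in 6 of the 7 genes with a window, against 12.6% of all 32851 windows of that length in the table and 10.8% of the 13823 windows of tested genes. Ankrd1 held 2 matches, 210 to 205 and 123 to 118 bases before the start, and 0.723% of the windows of tested genes held 2 or more. In Ccn1 the match lay 103 to 98, in Amotl2 65 to 60 and in Axl 233 to 228 bases before the start. Neither of the 2 windows of Lats2 held the letters, and no window of a member held the AP-1 letters TGANTCA, which stood in 4.88% of the windows of tested genes. A match is a description of letters and not of binding, and Ccn1, Ankrd1, Amotl2 and Axl are in the set because they are known as targets.

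The 12 libraries held 28278879 to 42033993 counts. All 9 fibroblast markers examined were present, with summed levels of 26677 to 34960 CPM (counts scaled to the same library total) with DMSO and 18705 to 28480 with CFZ. With DOX the sum was 33402 to 57469 and with CFZ-DOX 43637 to 75003 CPM. Collagen genes, Fn1 and Vim made up most of it, while the growth factor receptor genes Pdgfra and Pdgfrb averaged 161 and 187 CPM with DMSO, 35.1 and 74.6 with DOX and 26.9 and 51 with CFZ-DOX. Of 24 markers of epithelial, endothelial, haematopoietic, striated muscle and neural cells 15 stayed under 1 CPM in every library. The summed level of the 6 epithelial markers was 67.6 to 103 CPM with DMSO, 117 to 198 with CFZ, 77.7 to 93.3 with DOX and 97 to 136 with CFZ-DOX. Most of it was Krt14, which averaged 73.3, 152, 84.6 and 137 CPM. The summed level of the 4 haematopoietic markers was 0.987 to 1.47 CPM with DMSO and 7.93 to 14 with CFZ-DOX, where Cd68 averaged 11.5, and that of the 4 neural markers 0.179 to 0.274 and 3.18 to 9.69, where Gfap averaged 5.88. Their part in the results was not tested. Sums of markers were scaled to the library total alone, and averages of single markers also by the TMM factors described below. Cytosolic ribosomal protein genes took 3.84 to 4.33% of counts without doxorubicin, 6.60 to 7.16% with DOX and 9.86 to 10.5% with CFZ-DOX. On the third principal component of log CPM, with 4.64% of the variance, DOX 3 (−60.6) and CFZ-DOX 3 (−24.6) lay apart from the other libraries of their groups (6.7 and −7.1, 43 and 32.6). What sets these libraries apart was not tested, and member calls that change without both of them are given both ways.

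CPM below are normalised by the trimmed mean of M-values (TMM), with mean ± SD of 3 libraries. A gene is called when its Benjamini-Hochberg adjusted p, over all 16648 genes tested with edgeR's quasi-likelihood test, is under 0.05. The 9 genes all passed the filter on low counts, with 80 (Ankrd1 in CFZ-DOX 2) to 53686 counts (Axl in DOX 1) in a library. Genes annotated over them that shared exon bases had at most 33 counts in a library. That highest count belongs to a gene on the strand opposite Ankrd1, whose own counts were 80 to 735, and without a stated strand setting the reads of the pair cannot be told apart.

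Ccn1 encodes a secreted matricellular protein of the CCN family that binds integrins, and is also known as an immediate early gene. It stood at 194, 133 and 108 CPM in the DMSO libraries, 523, 314 and 367 with CFZ, 15.8, 16.4 and 23.7 with DOX, and 33.8, 25.3 and 62.8 with CFZ-DOX. The CFZ libraries were the highest and the DOX libraries the lowest, and no 2 groups overlapped. Ccn1 rose 2.77-fold with CFZ, from 145 ± 44.1 to 401 ± 109 CPM (log2 change 1.47, SE 0.31, edgeR adjusted p = 0.00286). With DOX it fell 7.78-fold to 18.6 ± 4.44 CPM (log2 change −2.96, SE 0.33, edgeR adjusted p = 3.02e-06), and with CFZ-DOX 3.57-fold to 40.6 ± 19.7 CPM (log2 change −1.83, SE 0.32, adjusted p = 0.000109). CFZ-DOX lay 2.18-fold above DOX (edgeR adjusted p = 0.0207), but this call was lost without DOX 1, DOX 2 or CFZ-DOX 3 (adjusted p = 0.0615, 0.0719 and 0.0827). The log2 difference was 0.66 without CFZ-DOX 3, and 0.86 without both DOX 3 and CFZ-DOX 3 (adjusted p = 0.110).

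Ccn2 encodes the related CCN protein known as connective tissue growth factor, a marker of fibroblast activation. It stood at 305, 311 and 202 CPM with DMSO, 132, 156 and 113 with CFZ, 60.1, 55.8 and 39.6 with DOX, and 64.3, 49.6 and 55.6 with CFZ-DOX. Every treated library lay below every DMSO library, and the DOX and CFZ-DOX libraries overlapped. Ccn2 fell 2.04-fold with CFZ (log2 change −1.03, SE 0.20, edgeR adjusted p = 0.00149), 5.26-fold with DOX (log2 change −2.40, SE 0.21, adjusted p = 2.87e-07) and 4.83-fold with CFZ-DOX (log2 change −2.27, SE 0.21, adjusted p = 2.57e-07). CFZ-DOX was not called against DOX (log2 change 0.12, SE 0.20, edgeR adjusted p = 0.686), and lay 2.37-fold below CFZ (adjusted p = 5.45e-05).

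**Figure D1:**
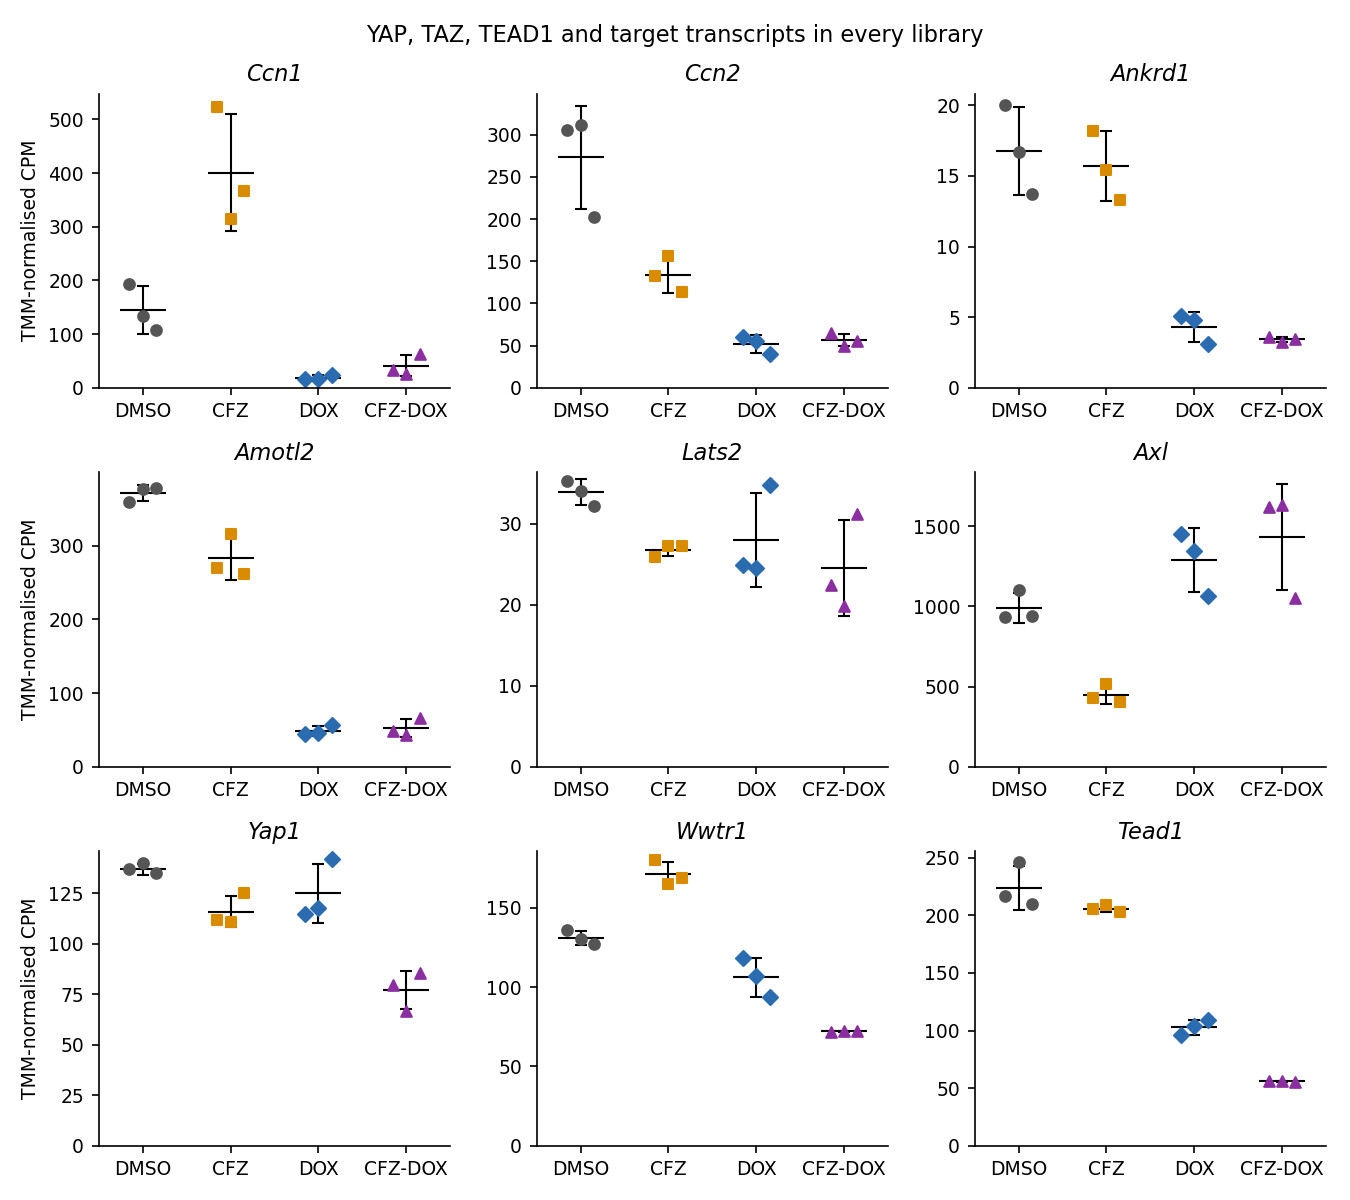
TMM-normalised CPM of each gene in every library (coloured points) with the group mean (horizontal line) and SD (error bars), 3 libraries a group and each vertical axis starting at 0. Ccn1 is highest in the CFZ libraries (314 to 523 CPM), where Ccn2 lies below DMSO, and Ccn1, Ccn2, Ankrd1 and Amotl2 are low in both groups with doxorubicin.

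Carfilzomib thus moved the 2 CCN transcripts in opposite directions, and their ratio within a library, which no scaling can change, was examined after these values were seen. Per kilobase of exon, Ccn1 was 0.902, 0.603 and 0.759 times Ccn2 in the DMSO libraries and 5.63, 2.85 and 4.59 times Ccn2 in the CFZ libraries. The log2 ratio was −0.43 ± 0.29 with DMSO and 2.07 ± 0.50 with CFZ (SD, n = 3), a difference of 2.49 with no overlap (exact two-sided permutation test, p = 0.1, the smallest that 3 libraries against 3 allow; 0.25 adjusted over 10 ratio comparisons). It was −0.98 ± 0.65 with DOX, with DOX 3 at −0.23 and the other libraries at −1.43 and −1.27. With CFZ-DOX it was −0.07 ± 0.65, with CFZ-DOX 3 at 0.68 and the other libraries at −0.43 and −0.47. Both of these groups overlapped with DMSO (exact permutation p = 0.3 and 0.7).

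**Figure D2:**
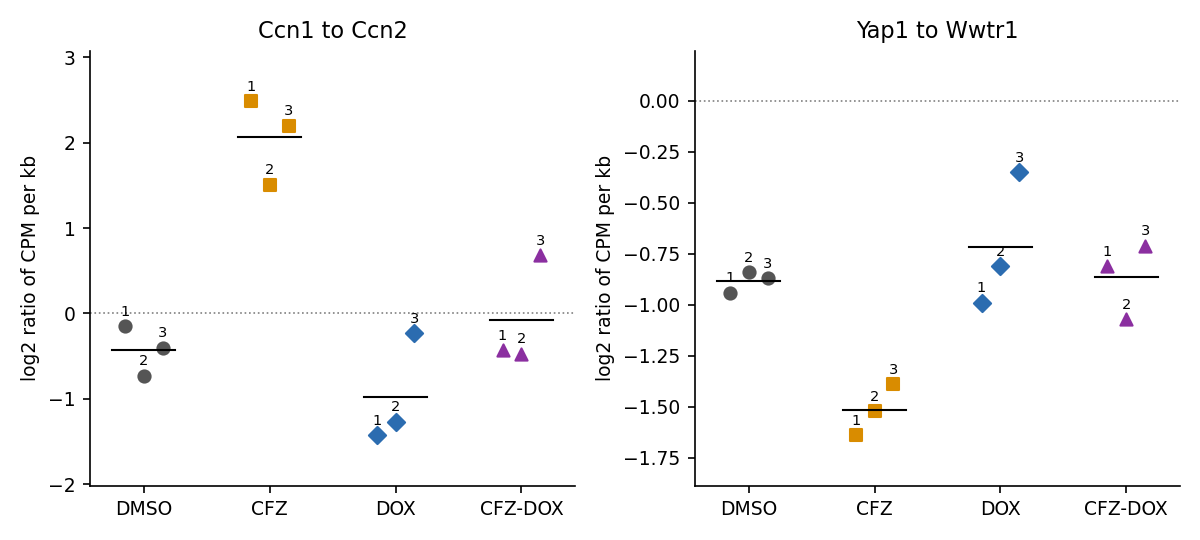
Log2 ratio of CPM per kilobase of Ccn1 to Ccn2 (left) and of Yap1 to Wwtr1 (right) in each library, numbered by replicate, with the group mean as a line. The CFZ libraries stand apart from DMSO in both ratios (1.51 to 2.49 for Ccn1 to Ccn2, −1.64 to −1.39 for Yap1 to Wwtr1), and replicate 3 is the highest of its group with DOX and with CFZ-DOX in both.

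Ankrd1 encodes a nuclear and sarcomeric ankyrin-repeat protein best known from heart muscle. Its level was low: 20, 16.7 and 13.7 CPM with DMSO and 18.2, 15.4 and 13.3 with CFZ, which overlapped, against 5.09, 4.77 and 3.08 with DOX and 3.56, 3.24 and 3.46 with CFZ-DOX. The libraries with doxorubicin all lay below those without. Ankrd1 fell 3.89-fold with DOX (log2 change −1.96, SE 0.21, edgeR adjusted p = 2.44e-06) and 4.90-fold with CFZ-DOX (log2 change −2.29, SE 0.22, adjusted p = 4.3e-07). It was not called with CFZ (log2 change −0.10, SE 0.20, edgeR adjusted p = 0.766) or for CFZ-DOX against DOX (adjusted p = 0.288). Of 6 striated muscle markers 3 stayed under 1 CPM in all libraries, among them Myod1 with at most 1 count in a library. Tnnt2 averaged 22.3 (DMSO), 15.2 (CFZ), 22.4 (DOX) and 29 CPM (CFZ-DOX). The sum of the 6, scaled to the library total without TMM, ranged over 21.7 to 29.9 CPM with DMSO and 12.5 to 22.3 with CFZ. It was 20.6 to 31.2 with DOX and 21.5 to 34.8 with CFZ-DOX.

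Amotl2 encodes a member of the angiomotin family, scaffold proteins that bind YAP and promote its phosphorylation. It stood at 360, 377 and 379 CPM with DMSO, 270, 316 and 262 with CFZ, 44.5, 45.8 and 56.8 with DOX, and 47.8, 42.4 and 65.7 with CFZ-DOX. Libraries with doxorubicin held at most 65.7 CPM and those without at least 262. Amotl2 fell 7.58-fold with DOX (log2 change −2.92, SE 0.18, edgeR adjusted p = 1.93e-08) and 7.16-fold with CFZ-DOX (log2 change −2.84, SE 0.18, adjusted p = 9.99e-09), while CFZ-DOX against DOX was not called (adjusted p = 0.75). With CFZ, where the groups did not overlap, Amotl2 was not called (log2 change −0.40, SE 0.16, edgeR adjusted p = 0.0864). It was lower with the replicate number as a block (edgeR adjusted p = 0.0439) and when only the libraries compared were fitted (0.0011).

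Lats2, the gene for a kinase that inactivates YAP and TAZ, changed less with doxorubicin than Ccn1, Ccn2, Ankrd1 and Amotl2. It stood at 35.3, 34 and 32.2 CPM with DMSO, 25.9, 27.2 and 27.3 with CFZ, 24.9, 24.5 and 34.8 with DOX, and 22.4, 19.9 and 31.2 with CFZ-DOX. Every CFZ library lay below every DMSO library, and DOX 3 and CFZ-DOX 3 lay well above the other libraries of their groups. Against DMSO, Lats2 was not called with CFZ (log2 change −0.34, SE 0.18, edgeR adjusted p = 0.18) or DOX (log2 change −0.27, SE 0.18, adjusted p = 0.191). When only the libraries compared were fitted, it was lower with CFZ (edgeR adjusted p = 0.0024). It was lower with CFZ-DOX (log2 change −0.46, SE 0.18, edgeR adjusted p = 0.0296), but stood at 0.03 under upper-quartile scaling. That call was also lost without DMSO 1, DMSO 2, CFZ-DOX 1 or CFZ-DOX 2 (adjusted p = 0.0657, 0.0540, 0.0779 and 0.112). Without both DOX 3 and CFZ-DOX 3, Lats2 was lower with DOX (edgeR log2 fold change −0.49, adjusted p = 0.000356) and with CFZ-DOX (−0.73, adjusted p = 6.91e-06).

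Axl encodes a receptor tyrosine kinase activated by the ligand GAS6, and it was the most abundant of the 9 transcripts per length in 3 of the 4 groups. It stood at 934, 1100 and 941 CPM with DMSO, 426, 518 and 404 with CFZ, 1454, 1343 and 1067 with DOX, and 1619, 1632 and 1050 with CFZ-DOX. Every CFZ library lay below all other libraries, and both groups with doxorubicin overlapped with DMSO. Axl fell 2.21-fold with CFZ (log2 change −1.14, SE 0.20, edgeR adjusted p = 0.000664). It was not called with DOX (log2 change 0.38, SE 0.20, edgeR adjusted p = 0.1), was higher with the replicate number as a block (adjusted p = 0.0337) or without DOX 3 (0.0161), and was lower under ribosomal protein scaling (−0.52, adjusted p = 0.00177). Without both DOX 3 and CFZ-DOX 3, Axl was higher with DOX (edgeR log2 fold change 0.46, adjusted p = 0.00234). With CFZ-DOX it was higher with TMM scaling (log2 change 0.53, SE 0.20, edgeR adjusted p = 0.023) and lower under ribosomal protein scaling (−1.14, adjusted p = 1.26e-06). The former call was lost without DMSO 1, DMSO 3, CFZ-DOX 1 or CFZ-DOX 2 (adjusted p = 0.0883, 0.0886, 0.0940 and 0.0996). Against CFZ, CFZ-DOX was 3.19-fold higher (edgeR adjusted p = 3.14e-06), a log2 fold change of 1.67 that was 0.10 and not called under ribosomal protein scaling (adjusted p = 0.457).

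Yap1 stood at 137, 140 and 135 CPM with DMSO, 112, 111 and 125 with CFZ, 115, 118 and 142 with DOX, and 79.4, 66.9 and 85.4 with CFZ-DOX. The CFZ-DOX libraries lay below all others, the CFZ libraries lay below DMSO without overlap, and the DOX libraries overlapped with DMSO. Yap1 was not called with CFZ (log2 change −0.24, SE 0.13, edgeR adjusted p = 0.181) or DOX (−0.13, SE 0.13, adjusted p = 0.369). When only the libraries compared were fitted, it was lower with CFZ (edgeR adjusted p = 0.0107). It was lower with DOX without both DOX 3 and CFZ-DOX 3 (edgeR log2 fold change −0.27, adjusted p = 0.0164). With CFZ-DOX it fell 1.78-fold against DMSO (log2 change −0.83, SE 0.13, edgeR adjusted p = 4.6e-05) and 1.62-fold against DOX (log2 change −0.69, SE 0.13, adjusted p = 0.00257).

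Wwtr1, the gene for TAZ, the paralogue of YAP, stood at 136, 130 and 127 CPM with DMSO, 180, 165 and 169 with CFZ, 118, 107 and 93.6 with DOX, and 71.9, 72.4 and 72.4 with CFZ-DOX. No 2 groups overlapped. It was 1.31-fold higher with CFZ (log2 change 0.39, SE 0.12, edgeR adjusted p = 0.0226), a call that did not hold without DMSO 1, DMSO 2 or DMSO 3 (adjusted p = 0.0558, 0.0817 and 0.0919) or without CFZ 1, CFZ 2 or CFZ 3 (0.0859, 0.0508 and 0.0633). With DOX it was 1.23-fold lower with TMM scaling (log2 change −0.30, SE 0.12, edgeR adjusted p = 0.0325) and stood at 0.07 under upper-quartile scaling. This call was lost without DMSO 1, DMSO 2, DMSO 3, DOX 2 or DOX 3 (adjusted p = 0.0933, 0.0672, 0.0548, 0.0679 and 0.366), with a log2 fold change of −0.12 without DOX 3. With CFZ-DOX it fell 1.81-fold against DMSO (log2 change −0.86, SE 0.12, edgeR adjusted p = 1.27e-05), 2.37-fold against CFZ (adjusted p = 3.57e-07) and 1.47-fold against DOX (adjusted p = 0.00491).

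Per kilobase, Yap1 was 0.520, 0.557 and 0.545 times Wwtr1 in the DMSO libraries and 0.322, 0.348 and 0.381 times in the CFZ libraries. The log2 ratio was −0.89 ± 0.05 with DMSO and −1.52 ± 0.12 with CFZ (SD, n = 3), with no overlap (exact two-sided permutation p = 0.1, the smallest possible, and 0.25 adjusted over the 10 ratio comparisons). It was −0.72 ± 0.33 with DOX and −0.86 ± 0.18 with CFZ-DOX, and both overlapped with DMSO (exact permutation p = 0.6 and 0.8).

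Tead1, which encodes the DNA-binding partner of YAP and TAZ and spans 227.5 kb of the genome against 3.0 kb for Ccn1, stood at 217, 246 and 210 CPM with DMSO and 206, 209 and 203 with CFZ. It stood at 95.7, 104 and 109 CPM with DOX and 56.0, 55.9 and 55.7 with CFZ-DOX. The groups lay in that order with no overlap, though CFZ and DMSO differed little (log2 change −0.12, SE 0.11, edgeR adjusted p = 0.463). Tead1 fell 2.18-fold with DOX (log2 change −1.12, SE 0.12, edgeR adjusted p = 1.39e-06) and 4.01-fold with CFZ-DOX (log2 change −2.0, SE 0.12, adjusted p = 8.05e-09). It was 1.84-fold lower with CFZ-DOX than with DOX (log2 change −0.88, SE 0.12, edgeR adjusted p = 0.000256).

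Read over the set, Ccn1 and Wwtr1 were called higher and Ccn2 and Axl lower with CFZ, so 4 of 9 genes were called where 28.8% of all genes tested were (14.4% higher and 14.4% lower). Wwtr1 was not called when any library of the comparison was left out, which gave 3 members and 3258 to 3676 of all genes. Nor was it called with library size, upper-quartile or ribosomal protein scaling (edgeR adjusted p = 0.101, 0.0598 and 0.149). With DOX 6 of 9 were lower (Ccn1, Ccn2, Ankrd1, Amotl2, Wwtr1 and Tead1) and none was higher, against 67.4% of all genes called, 31.3% lower and 36.1% higher. For none of the 3 others was the unadjusted p under 0.05, and DESeq2 called 1 of them, Axl, higher. With CFZ-DOX 8 were lower and 1, Axl, higher, in a comparison where 75.0% of all genes were called, 35.7% lower and 39.3% higher. The median log2 fold change of the 9 genes was −0.24 (CFZ), −1.12 (DOX) and −1.83 (CFZ-DOX), against −0.01, 0.14 and 0.09 over all 16648 genes. These 3 comparisons share the DMSO libraries. Without both DOX 3 and CFZ-DOX 3, 8 members were lower and 1, Axl, higher with DOX, and the same counts held with CFZ-DOX. Of all genes 5986 were then lower and 6308 higher with DOX. With CFZ-DOX 6610 were lower and 6517 higher.

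**Figure D3:**
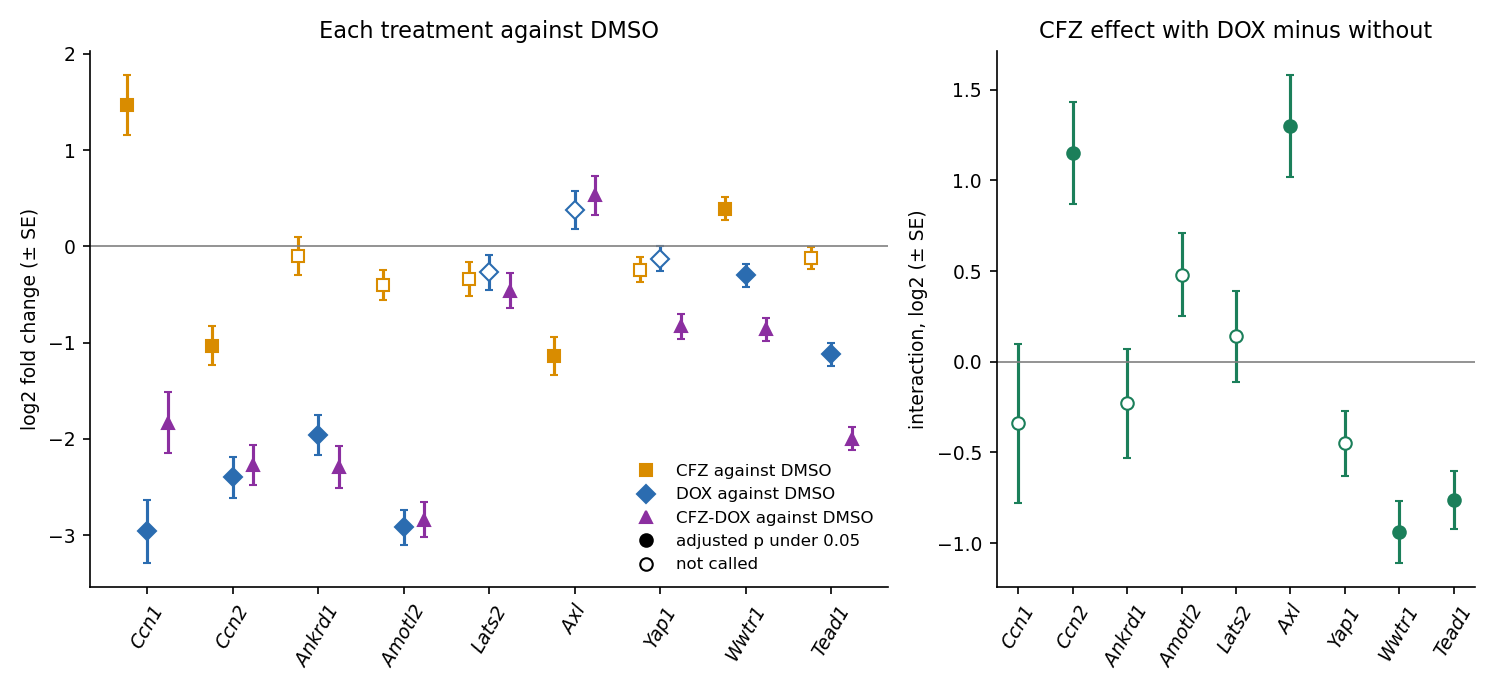
Left, log2 fold change of each gene in each treatment against DMSO with its SE (TMM scaling), filled where the adjusted p is under 0.05. Right, the effect of CFZ in the presence of DOX minus its effect alone (log2, with SE), where Ccn2 and Axl lie above 0 and Wwtr1 and Tead1 below it among the called genes.

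For the genes with small changes the direction depended on how counts were scaled. Scaling to ribosomal protein genes moved the all-gene median log2 change against DMSO by −0.87 (DOX) and −1.65 (CFZ-DOX), upper-quartile scaling by 0.38 and 0.50, and library size by −0.12 and −0.35. Ccn1, Ccn2, Ankrd1, Amotl2 and Tead1 were lower in both comparisons in all 5 scalings, where 22.3% (DOX) and 24.8% (CFZ-DOX) of all genes were, and none was higher in all 5 with DOX (13.4% of all genes). Of the rest, Yap1 and Wwtr1 were lower in all 5 with CFZ-DOX. With CFZ, Ccn1 was higher (7.92% of all genes) and Ccn2 and Axl lower (12%) in all 5. Taken against the median of all genes, the change of Axl was 0.22 to 0.24 with DOX and 0.41 to 0.45 with CFZ-DOX over the 5 scalings, that of Lats2 −0.41 to −0.37 and −0.56 to −0.51, and that of Tead1 −1.26 to −1.25 and −2.10 to −2.09. A scaling moves all genes by nearly the same amount, and subtracting the median takes that amount out. These ranges are therefore narrow by construction and do not show which scaling is right.

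**Figure D4:**
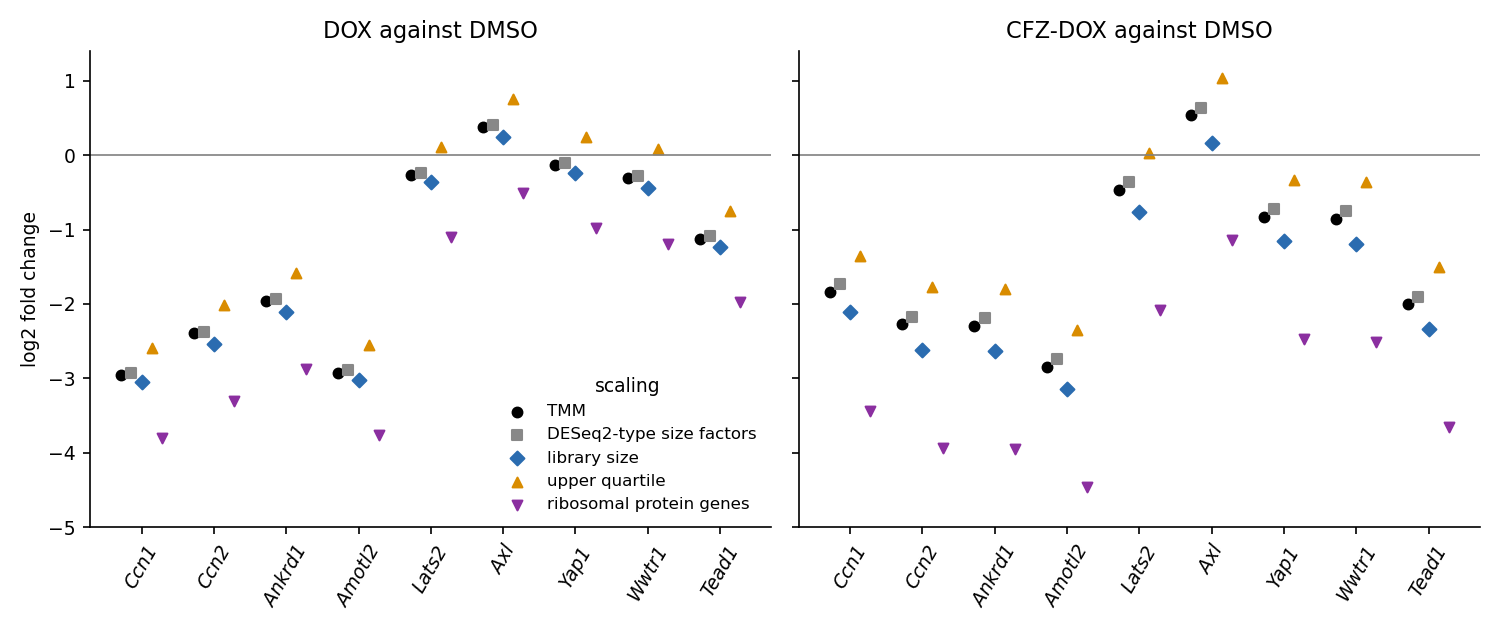
Log2 fold change of each gene against DMSO with DOX (left) and CFZ-DOX (right) under 5 scalings of the counts. Ccn1, Ccn2, Ankrd1, Amotl2 and Tead1 stay below 0 in all 5, while Axl lies above 0 except under ribosomal protein scaling (−0.52 and −1.14).

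Adding carfilzomib to doxorubicin lowered the co-activators and their partner and left most targets uncalled. Against DOX, CFZ-DOX was lower for Yap1, Wwtr1 and Tead1 in all 5 scalings (8.34% of all genes were) and higher for Ccn1 with TMM scaling but not in all 5, while Ccn2, Ankrd1, Amotl2, Lats2 and Axl were not called. So 4 of 9 members were called, against 22.4% of all genes (10.3% higher and 12% lower), and none was higher in all 5 scalings (0.757% of all genes). Ribosomal protein scaling, which moved the median of all genes by −0.78, called 8 members, all lower. With that scaling 8804 of all genes were called lower and 126 higher. Adding doxorubicin to carfilzomib lowered 7 of the 9 genes and raised Axl, with 77.3% of all genes called, 36.9% lower and 40.4% higher. The largest of these falls was that of Ccn1, by 9.87-fold (log2 change −3.30, SE 0.33, edgeR adjusted p = 6.4e-07), and Lats2 was not called with TMM scaling (log2 change −0.13, edgeR adjusted p = 0.528). Lats2 was lower without both DOX 3 and CFZ-DOX 3 (−0.36, edgeR adjusted p = 0.00349) and higher under upper-quartile scaling (0.41, adjusted p = 0.0352). Without both of those libraries 8 members were lower and 1 higher, where 6666 of all genes were lower and 6803 higher. In all 5 scalings 6 members were lower (25.3% of all genes) and none higher (13.3%). Yap1, with a log2 change of −0.59, stood at −0.05 under upper-quartile scaling (edgeR adjusted p = 0.749).

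The interaction, the effect of CFZ in the presence of DOX minus its effect alone, was called for 4 of the 9 genes, against 19.6% of all genes (8.46% higher and 11.2% lower). It was higher for Axl (edgeR log2 difference 1.30, SE 0.28, adjusted p = 0.00556) and Ccn2 (1.15, SE 0.28, adjusted p = 0.0111), both of which fell with CFZ alone and were not called when it was added to DOX. It was lower for Wwtr1 (edgeR log2 difference −0.94, SE 0.17, adjusted p = 0.00163) and Tead1 (−0.76, SE 0.16, adjusted p = 0.00581). Axl, Wwtr1 and Tead1 were called so in all 5 scalings (1.47% of all genes were higher and 6.58% lower), and Ccn2 was not under ribosomal protein scaling (0.50, adjusted p = 0.141). For Ccn1 the interaction was −0.34 (SE 0.44, edgeR adjusted p = 0.613). Without both DOX 3 and CFZ-DOX 3 it was also called for Amotl2 (0.41, edgeR adjusted p = 0.0372) and Yap1 (−0.42, adjusted p = 0.0231).

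Per kilobase of exon, the order of the transcripts changed with treatment. With DMSO Axl (197 ± 18.7 CPM per kb) came first, followed by Ccn2 (95.4 ± 21.4), Ccn1 (71.8 ± 21.9) and Amotl2 (59.2 ± 1.68), and in this trio neighbours overlapped. Wwtr1 (27.4 ± 0.936), Tead1 (16.5 ± 1.42) and Yap1 (14.8 ± 0.295) followed without overlap, and Ankrd1 (5.81 ± 1.08) and Lats2 (4.86 ± 0.228), which overlapped, came last. With CFZ Ccn1 was the highest at 199 ± 53.8 CPM per kb, above Axl at 89.3 ± 12. With DOX Axl, at 256 ± 39.5 CPM per kb, was followed by Wwtr1 at 22.2 ± 2.59, which overlapped with Ccn2 at 18.1 ± 3.78. Ccn1 (9.23 ± 2.20 CPM per kb), Amotl2 (7.80 ± 1.08) and Tead1 (7.57 ± 0.48) came after Yap1 (13.5 ± 1.59) and neighbours among them overlapped. With CFZ-DOX Axl stood at 285 ± 66.0 CPM per kb, and Ccn1 (20.1 ± 9.74) and Ccn2 (19.7 ± 2.60), which overlapped, came next.

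A list of 23 Hippo pathway genes, all of them tested, holds kinases, scaffolds and upstream regulators, most of which are known to restrain YAP. Ajuba and Limd1 encode LIM proteins that are known to inhibit LATS kinases instead. With CFZ 5 were higher and 4 lower, against 14.4% of all genes higher and 14.4% lower. Taok3 (edgeR log2 fold change 0.87, adjusted p = 0.0123), Rassf1 (0.62, adjusted p = 0.00284) and Map4k4 (0.50, adjusted p = 0.00684) were higher, and Ajuba (−1.03, adjusted p = 0.0151) and Wwc2 (−0.40, adjusted p = 0.0285) lower. Rassf1 and Map4k4 were so in all 5 scalings and Taok3, Ajuba and Wwc2 were not. With DOX 16 were lower, 10 of them in all 5 scalings, and 1 was higher, against 31.3% of all genes lower (22.3% in all 5) and 36.1% higher. Taok2, a kinase upstream of the cascade (edgeR log2 fold change −1.50, adjusted p = 1.45e-07), and Wwc1 and Wwc2, which encode KIBRA proteins (−1.42 and −1.41, adjusted p = 0.000196 and 4.4e-07), led the falls in all 5. The single rise was that of the protocadherin gene Dchs1, named after its values were seen, from 0.0530 ± 0.030 to 0.791 ± 0.421 CPM. With CFZ-DOX 16 were lower, 11 of them in all 5 scalings, and Dchs1 was higher, against 35.7% of all genes lower (24.8% in all 5) and 39.3% higher. Sav1, a scaffold of the MST kinases, fell to 18.8 ± 2.41 CPM from 69.8 ± 2.61 with DMSO (log2 change −1.89, edgeR adjusted p = 2.03e-08). Against DOX, CFZ-DOX was lower for 6 and higher for 2 (12% and 10.3% of all genes), and Fat1 (edgeR log2 fold change −1.25, adjusted p = 0.000261) and Mob1a (−1.19, adjusted p = 9.4e-05) were lower in all 5 scalings. The median log2 fold change of the list was 0.14 (CFZ), −0.52 (DOX) and −0.90 (CFZ-DOX).

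Among the other TEAD and VGLL genes, which encode TEAD factors and cofactors that compete with YAP for them, 5 of 7 were tested, and Vgll1 and Vgll2 had 0 counts in every library. With CFZ 4 of the 5 were lower (14.4% of all genes), and Vgll3 fell from 196 ± 6.66 to 87.7 ± 3.94 CPM (edgeR log2 fold change −1.16, adjusted p = 2.32e-05). Tead3 (edgeR log2 fold change −0.66, adjusted p = 0.0356) and Tead4 (−0.49, adjusted p = 0.0169) were lower too, the latter in all 5 scalings and the former not. With DOX Tead4 fell from 73.3 ± 6.39 to 10.7 ± 0.89 CPM (edgeR log2 fold change −2.78, adjusted p = 1.02e-08) and Vgll3 to 108 ± 18.9 (−0.86, adjusted p = 5.63e-05), both in all 5 scalings. Tead3 and Tead2 were higher with DOX with TMM scaling but not in all 5 (edgeR log2 fold change 0.65 and 0.39, adjusted p = 0.016 and 0.0127). Of all genes 31.3% were lower with DOX (22.3% in all 5) and 36.1% higher. With CFZ-DOX 3 were lower, and Tead2 was higher, though not in all 5 scalings (edgeR log2 fold change 0.61, adjusted p = 0.000506). In that comparison 35.7% of all genes were lower and 39.3% higher. The interaction was called higher for Tead4 (edgeR log2 difference 1.17, adjusted p = 0.00144) and Tead2 (0.61, adjusted p = 0.0271) with TMM scaling and for neither in all 5. It was called higher for 8.46% of all genes with TMM scaling.

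Of the other 4 CCN genes, Ccn4 changed in the direction of Ccn1 with each treatment, though not called with CFZ (edgeR log2 fold change 0.42, adjusted p = 0.0807). Ccn5 changed in the direction of Ccn2 with each treatment, but was not called with DOX or CFZ-DOX (edgeR log2 fold change −0.42 and −0.47, adjusted p = 0.351 and 0.282). Differences between CCN genes were not tested. Ccn5, the CCN gene without the C-terminal domain, fell with CFZ from 29.1 ± 7.95 to 9.89 ± 3.38 CPM (log2 change −1.56, SE 0.40, edgeR adjusted p = 0.00924). The other 3 were not called with CFZ, where 14.4% of all genes were lower and 14.4% higher. Ccn4 was lower with DOX with TMM scaling (edgeR log2 fold change −0.58, adjusted p = 0.00803), not in all 5, and with CFZ-DOX in all 5 (−1.17, adjusted p = 3e-05). Ccn6 was higher with DOX, in all 5 scalings, from 0.117 ± 0.0578 to 0.778 ± 0.158 CPM. Ccn3 and Ccn6 held at most 32 and 30 counts in a library.

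Of 16 other published YAP and TAZ target genes 15 were tested, Igfbp3 having at most 4 counts. With CFZ 3 were lower and 2 higher, where 14.4% of all genes were called in each direction. Crim1 (edgeR log2 fold change −1.16, adjusted p = 7.32e-05), Asap1 (−0.92, adjusted p = 9.14e-05) and Ccdc80 (−0.88, adjusted p = 0.0213) were lower in all 5 scalings. Gadd45b (edgeR log2 fold change 0.99, adjusted p = 0.0408) and the tissue factor gene F3 (0.86, adjusted p = 0.0394) were higher, not in all 5. With DOX 6 were lower and 4 higher, 4 and 1 of them in all 5 scalings, a total of 10 of 15 where 67.4% of all genes were called. In all 5 scalings 22.3% of all genes were lower and 13.4% higher. The gene higher in all 5 was Nt5e, named after its values were seen, at 0.0339 ± 0.0104 (DMSO) and 0.331 ± 0.101 CPM (DOX). It held at most 17 counts in a library. Asap1, which encodes an ARF GTPase-activating protein, fell from 298 ± 24.1 to 28.7 ± 2.51 CPM (edgeR log2 fold change −3.38, adjusted p = 1.6e-09), and Rbms3 (−1.46, adjusted p = 2.81e-05) and Foxf2 (−1.29, adjusted p = 0.00113) were lower too, all 3 in all 5 scalings. Ccdc80 and Arhgef17 were higher with TMM scaling and not in all 5 (edgeR log2 fold change 0.83 and 0.65, adjusted p = 0.0122 and 0.00163). With CFZ-DOX 8 were lower and 3 higher, 6 and 1 of them in all 5, where 75.0% of all genes were called. In all 5 scalings 24.8% of all genes were lower and 11.1% higher, and the listed gene higher was again Nt5e. The median log2 fold change of the list was −0.37 (CFZ), −0.35 (DOX) and −0.74 (CFZ-DOX), against −0.37, −2.18 and −2.05 for the 6 target genes among the members. Both sets were chosen with earlier results of these data known, so these medians only describe the genes chosen. Ptpn14 belongs both to this list and to that of the Hippo pathway genes.

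**Figure D5:**
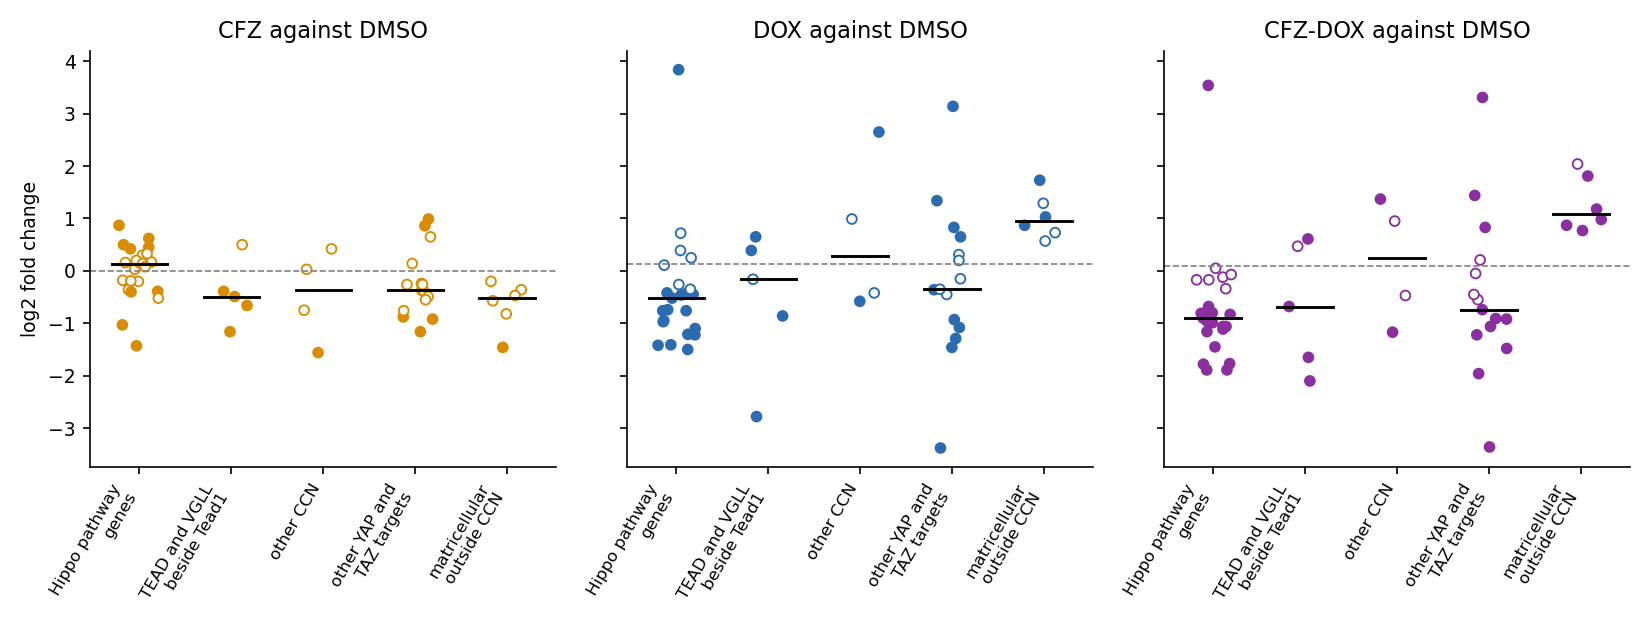
Log2 fold change against DMSO of every tested gene of 5 lists (points, filled where the adjusted p is under 0.05) with the median of each list (black bar) and of all genes (dashed line), TMM scaling. The list of Hippo pathway genes has its median below that of all genes with DOX and CFZ-DOX (−0.52 and −0.90), and the matricellular genes outside the CCN family above it (0.95 and 1.08).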

How the data were processed

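The deposited table gives raw counts by Ensembl gene ID, with exon coordinates and length. The submitters' processing notes name Trimmomatic (0.39), featureCounts from Subread (2.0.2), STAR (2.7.9a) and the build GRCm39. The annotation release, strand setting and handling of read pairs are not given in the sources used here. Columns were matched to samples by the description in the labels, and groups were taken from the titles. Symbols came from an older mouse annotation, used for names only, which matched 52073 of 56980 IDs (91.4%).

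Genes kept by filterByExpr (minimum count 10, minimum total 15), 16648 in number, were tested with edgeR 4.0.16 in R 4.3.3 (robust quasi-likelihood fit, TMM scaling, a mean per group over all 12 libraries, prior count 0.125), with Benjamini-Hochberg adjustment. The SE is the absolute log2 fold change over the square root of F. The fit was tested on simulated data. Alternatives were 4 other scalings (85 ribosomal protein genes in 1), DESeq2 1.42.0, other filters, only the libraries compared, a replicate block and leaving out each library. Calls in all 5 scalings, within-library ratios and leaving out DOX 3 with CFZ-DOX 3 were added after seeing the data. Text names all members, up to 3 called list genes in the main and 2 in the other direction (mean of at least 5 CPM), and the 3 genes most like each member, which for Ankrd1 are not reported here. Members and lists were chosen with earlier results of these data known.

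Replicates differed by more than sampling noise (chi-square per degree of freedom 12.37 to 107.47). As a check of pairing, deviations from the group means correlated between equal replicate numbers for CFZ and DMSO (r across genes 0.38, 0.30 and 0.42), DOX and DMSO (0.25, 0.26 and 0.21) and CFZ-DOX and DOX (0.58, 0.35 and 0.65). They barely did for replicates 2 and 3 of CFZ-DOX and DMSO (0.29, 0.06 and 0.08) and CFZ-DOX and CFZ (0.26, 0.02 and 0.10). Any pairing comes from the data, not the labels. Counts per library limit precision, and intervals were not drawn from counting error.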

Additional observations from a re-analysis of the deposited data

Results flagged for a closer look

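The effect of carfilzomib differed with and without doxorubicin for 4 of the 9 genes by the test of the interaction. The difference, with doxorubicin minus without, was 1.15 on the log2 scale for Ccn2, where carfilzomib changed the log2 level by −1.03 alone and by 0.12 beside doxorubicin. For Axl it was 1.30, from −1.14 alone to 0.16 beside doxorubicin. For Wwtr1 it was −0.94, from 0.39 to −0.56, and for Tead1 −0.76, from −0.12 to −0.88.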

How the results depend on the processing

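Over all comparisons, 348 fold changes of members kept direction and side of the threshold when 1 library was left out, 22 lost and 2 gained the call and 6 changed sign. Under the other alternatives 460 kept both, 20 lost and 23 gained the call and 19 changed sign. Under upper-quartile scaling the log2 fold changes of Lats2, Yap1 and Wwtr1 with DOX were 0.10, 0.24 and 0.075, and that of Lats2 was 0.027 for CFZ-DOX against DMSO and 0.41 against CFZ. Under ribosomal protein scaling Axl stood at −0.52 with DOX and −1.14 with CFZ-DOX. For CFZ-DOX against DOX, Ccn2, Amotl2 and Axl stood at −0.63, −0.69 and −0.62 with that scaling and at −0.077, −0.12 and −0.079 with library size, and the interaction of Amotl2 and Lats2 at −0.20 and −0.55 with ribosomal protein scaling. Lats2 for CFZ-DOX against CFZ was 0.095 with a mean of at least 1 CPM and 0.027 with only the 6 libraries compared. With 1 library left out, Ankrd1 with CFZ ran from −0.22 (without DMSO 3) to 0.045 (without DMSO 1). For CFZ-DOX against DOX, Ccn2 ran from −0.086 (without DOX 3) to 0.23, Axl from −0.012 (without DOX 3) to 0.33 and Amotl2 from −0.12 (without CFZ-DOX 3) to 0.21, and the interaction of Lats2 from −0.071 (without CFZ-DOX 3) to 0.32. Without both DOX 3 and CFZ-DOX 3, Ccn2 and Amotl2 for CFZ-DOX against DOX were −0.048 and −0.023.

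Fitted to the 6 libraries compared alone, CFZ against DMSO gave 7 called members and 7925 called genes, against 4 and 4797, and CFZ-DOX against DOX gave 2 and 1118, against 4 and 3727. Ribosomal protein scaling gave 8 and 8930 for the latter and 5468 genes for the interaction, against 3270. The interaction gave 5031 genes with the replicate block, where Yap1 was called too (adjusted p = 0.0458), 5736 without both DOX 3 and CFZ-DOX 3, and 2149 (without CFZ 3) to 4898 when 1 library was left out. The replicate block called 5, 7, 9, 8, 4 and 5 members, against DMSO with CFZ, DOX and CFZ-DOX, then for CFZ-DOX over CFZ, CFZ-DOX over DOX and the interaction. In the same order it called 6124, 12112, 13115, 13445, 5524 and 5031 of all genes. The main fit called 4797, 11223, 12478, 12866, 3727 and 3270, so calls rose over all genes too. The cause of these changes was not tested. With 3 libraries a group and 1 time point, small changes such as those of Lats2 and Wwtr1 could not be settled.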

Other observations

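The 6 matricellular genes outside the CCN family encode secreted proteins that modulate contact between cells and matrix. With DOX 3 were higher and none lower, and with CFZ-DOX 5 were higher and none lower, with TMM scaling, where 36.1% and 39.3% of all genes were higher. In all 5 scalings 1 was higher with DOX, Thbs1, and none with CFZ-DOX, where 13.4% and 11.1% of all genes were. Thbs1, which encodes thrombospondin 1 and is also known as a YAP target, stood at 256 ± 87.5 (DMSO), 145 ± 42.8 (CFZ), 849 ± 401 (DOX) and 504 ± 132 CPM (CFZ-DOX) (edgeR log2 fold change with DOX 1.73, SE 0.36, adjusted p = 0.000647). Sparc, the gene for osteonectin, stood at 2301 ± 360 CPM with DMSO and 8096 ± 3489 with CFZ-DOX (edgeR log2 fold change 1.81, adjusted p = 0.000119), and this call did not hold in all 5 scalings. With CFZ alone Spp1, the gene for osteopontin, was lower in all 5 (edgeR log2 fold change −1.46, adjusted p = 0.0333).

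For the members other than Ankrd1, 9404 tested genes were ranked by likeness, the root mean square difference over the 12 libraries of log2 CPM set to 0 at the gene's own DMSO mean. The nearest to Ccn1 were Ier5 (0.39), Dusp1 (0.41) and Ifrd1 (0.41). Their log2 fold changes were 0.98, 0.80 and 1.09 with CFZ and −2.40, −2.63 and −2.86 with DOX. The nearest to Ccn2 were Pomk (0.23), Yeats4 (0.25) and Fyco1 (0.27), and to Amotl2 Phlpp1 (0.16), Suox (0.18) and Ldlrad4 (0.20). Axl lay nearest to Metrn (0.09), Tuba1b (0.11) and Pyurf (0.14), and Lats2 to Baz1a (0.12), Polr2d (0.13) and Rest (0.13). Yap1 lay nearest to Tradd (0.07), Cbfb (0.09) and Ramac (0.12), Wwtr1 to Kpna1, Xrn2 and Bet1 (all 0.12), and Tead1 to Pelp1 (0.10), Rad18 (0.11) and Rab12 (0.12). None of these nearest genes was itself a member. These are descriptions of 12 libraries in 4 groups.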
